A study of Mus musculus with 6 samples.

Results

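The NR4A family holds 3 orphan nuclear receptor genes, Nr4a1 (Nur77), Nr4a2 (Nurr1) and Nr4a3 (Nor1). They were taken by symbol from a table of 24940 mouse genes, and all 3 members had a row and passed the filter on low counts that left 12233 genes for testing. Transcripts were measured by RNA sequencing of polyadenylated RNA in primary hepatic stellate cells. These cells store retinoids in the healthy liver and become matrix-producing myofibroblasts in fibrosis. Forskolin-treated cells (3 libraries, A, B and C) received 5 µM forskolin for 3 h after 2 days in culture, and DMSO-treated cells (3 libraries, A, B and C) received DMSO as the vehicle for the same time. Both groups came from female wild-type mice of the C57BL/6JBomTac strain. The labels give neither the age of the animals nor whether the letters stand for separate isolations, and the p-values below therefore rest on a spread between libraries that may be technical.

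NR4A proteins are transcription factors whose ligand pocket is filled by side chains, so that their activity depends mainly on how much protein a cell makes. Their genes are immediate-early genes: cAMP activates protein kinase A, which phosphorylates CREB, and CREB with its CRTC coactivators switches them on within a short time and without new protein synthesis. Forskolin activates adenylyl cyclase directly and so raises cAMP without a receptor ligand. The receptors bind DNA as monomers at the NBRE element or as dimers, Nr4a1 and Nr4a2 also together with the retinoid X receptors. In fibroblasts, Nr4a1 is known as a brake on transforming growth factor beta signalling.

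Sequences of the 3 loci are shown first, since they bear on how the members are related and on the signal that was applied. The zinc finger region reads DNA, and the stretch from its first to its last zinc-binding cysteine spans 56 residues in each member. The coding bases of this stretch are given 5′ to 3′ from the GENCODE M21 transcript that matches the RefSeq transcript of the table, with the codons of the P-box, the part of the first finger that contacts bases of the DNA, in capitals.

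Nr4a1: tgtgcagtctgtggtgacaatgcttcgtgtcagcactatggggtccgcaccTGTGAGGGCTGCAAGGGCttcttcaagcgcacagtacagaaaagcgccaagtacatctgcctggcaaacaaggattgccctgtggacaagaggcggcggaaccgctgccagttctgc

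Nr4a2: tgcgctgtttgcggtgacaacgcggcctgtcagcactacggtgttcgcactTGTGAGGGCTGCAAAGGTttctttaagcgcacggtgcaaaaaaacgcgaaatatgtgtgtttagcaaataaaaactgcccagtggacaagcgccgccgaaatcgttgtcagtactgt

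Nr4a3: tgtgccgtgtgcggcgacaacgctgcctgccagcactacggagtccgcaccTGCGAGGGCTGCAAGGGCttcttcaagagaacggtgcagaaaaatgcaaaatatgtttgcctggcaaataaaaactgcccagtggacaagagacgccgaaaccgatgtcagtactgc

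The stretch was identical between Nr4a2 and Nr4a3 in all 56 residues and in 141 of 168 bases. Nr4a1 shared 51 of 56 residues with each of them, and 127 bases with Nr4a2 and 135 with Nr4a3. Over whole transcripts the longest identical run was 27 bases, between Nr4a2 and Nr4a3, against 24 bases between Nr4a1 and Nr4a3 and 14 between Nr4a1 and Nr4a2. No run of 50 bases was shared by any pair. The read length is not stated in the labels.

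The other sequence is the window before each gene start in the RefSeq table (GRCm38.p6), shown because it holds the core of the cAMP response element (CRE), to which CREB binds. The core TGACG was searched on both strands, where it can overlap the palindromic full element TGACGTCA, and is in capitals. The window of Nr4a1 is chr15:101266596-101266845 (plus strand). That of Nr4a2 is chr2:57124004-57124253 (minus strand), before the upstream start of the gene, 8965 bases from the start of the transcript in the count table. For Nr4a3 the bases chr4:48045055-48045152 (plus strand) are printed, which end where the GENCODE transcript starts, 152 bases before the RefSeq start.

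Nr4a1: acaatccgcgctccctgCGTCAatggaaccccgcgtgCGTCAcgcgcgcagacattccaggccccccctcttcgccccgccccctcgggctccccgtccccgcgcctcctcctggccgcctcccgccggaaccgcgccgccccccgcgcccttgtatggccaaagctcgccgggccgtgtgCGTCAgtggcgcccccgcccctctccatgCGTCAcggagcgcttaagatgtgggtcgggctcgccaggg

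Nr4a2: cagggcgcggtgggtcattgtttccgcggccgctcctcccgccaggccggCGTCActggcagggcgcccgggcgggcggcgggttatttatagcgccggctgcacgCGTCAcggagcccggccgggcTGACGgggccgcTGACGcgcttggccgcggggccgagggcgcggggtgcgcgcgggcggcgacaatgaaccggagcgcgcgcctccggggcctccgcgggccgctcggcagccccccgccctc

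Nr4a3: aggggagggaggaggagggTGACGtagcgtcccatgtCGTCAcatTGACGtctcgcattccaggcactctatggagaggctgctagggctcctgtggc

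Each member had 4 CRE cores in the 250 bases before its RefSeq gene start. In Nr4a1 all 4 lay on the strand opposite to the gene, at 233, 213, 69 and 40 bases before the start. Nr4a2 had them at 200 and 144 bases on the opposite strand and at 123 and 111 bases on its own strand. In Nr4a3 they began 231, 213, 205 and 147 bases before the start, so that 3 fall in the printed stretch. At least 1 core stood in 17.8% of all 32851 such windows and at least 4 in 0.137%. Other shares were taken per gene, by the window with the most matches, and are not the same measure as shares of windows. Per gene, at least 1 core stood in 31.4% of tested genes with a window. Among the 210 other genes called higher that had a window it was 45.7% (96 genes). Among 9535 tested genes with a window, 38 had 4 or more (0.399%). Of the 35 that are not NR4A genes, 5 were called higher with forskolin and 0 lower by edgeR, where 2.22% of all 12233 tested genes were called higher and 0.572% lower. Their median log2 fold change was 0.13, against 0.005 for all tested genes. The full element stood in 1.55% of all windows and in none of the 3 NR4A windows. Per gene it stood in 3.13% of tested genes with a window and in 5.24% of the 210 other genes called higher. A CArG box, the element of serum response factor, was searched as CCWWWWWWGG, W being A or T. This exact pattern stood in 1.47% of all windows and also in none of the 3. Near matches were not counted, such as ccttgtatgg in the Nr4a1 window. A match is a description of these letters and not a binding site.

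**Figure D1:**
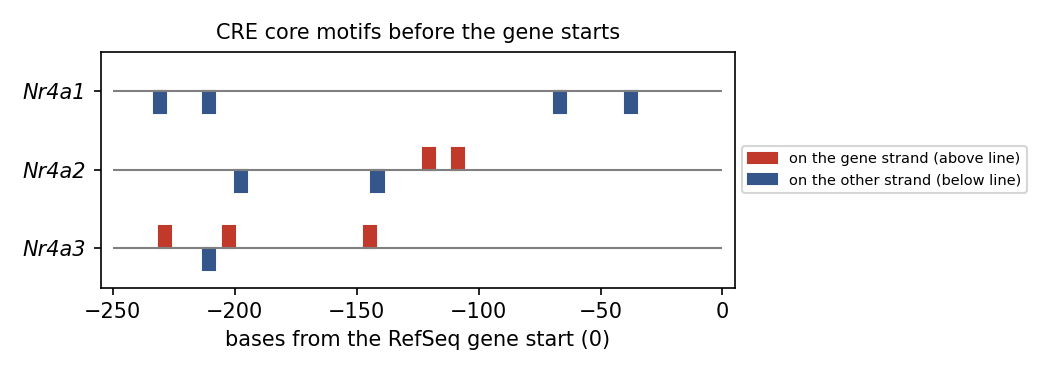
Positions of CRE core motifs in the 250 bases before the RefSeq gene start of each NR4A member; the x axis is the distance in bases from the start, and boxes above or below the line lie on the gene strand or the other strand. Each member has 4 cores, within 233 bases of the start.

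The C libraries were the shallowest of each group. Total counts were 9471384, 10607997 and 2770628 in forskolin A, B and C and 6753746, 9454832 and 3025990 in DMSO A, B and C, and log2 CPM (counts scaled to a common library total) of C libraries correlated at 0.925 to 0.930 with the others of their group across genes, against 0.980 and 0.972 between A and B. The label of the cells was checked against marker genes, summed over the unscaled library totals. All 12 stellate cell markers, Lrat, Reln and Des among them, were tested, with a summed level of 1693 to 1926 CPM with forskolin and 1657 to 1761 CPM with DMSO. Hgf and Hand2 of that list were called higher and 0 were called lower, beside 2.22% and 0.572% of all tested genes. Of 8 myofibroblast markers 0 were called by any of edgeR, DESeq2, limma-voom and edgeR's likelihood ratio test and 0 had an unadjusted p under 0.05, with sums of 439 to 768 CPM with forskolin and 420 to 751 CPM with DMSO. Markers of other cells were sparse. Macrophage markers (2 of 10 tested, Marco at 0) summed to 14.1 to 18.6 CPM with forskolin and 18.7 to 22.8 CPM with DMSO. Endothelial markers (2 of 8 tested) summed to 8.76 to 14.4 CPM with forskolin and 5.48 to 13.5 CPM with DMSO, and hepatocyte markers (2 of 8 tested) to 5.17 to 16.6 CPM with forskolin and 6.98 to 7.85 CPM with DMSO. Cholangiocyte markers (3 of 5 tested, Krt7 at 0) summed to 8.66 to 43.9 CPM with forskolin and 11.9 to 19.8 CPM with DMSO, and lymphocyte markers (1 of 6 tested; Ms4a1 and Nkg7 among those at 0) to 1.90 to 5.41 CPM with forskolin and 1.18 to 5.29 CPM with DMSO. In bulk samples a change in RNA per cell and a change in the share of cells that make it cannot be told apart.

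All 3 receptors rose with forskolin. A level is given in CPM, with library sizes scaled by the TMM method, and a change as the log2 fold change of forskolin over DMSO from edgeR's quasi-likelihood test, called at a Benjamini-Hochberg adjusted p of 0.05 over all 12233 genes. By this rule 2.22% of tested genes were called higher and 0.572% lower, against 3 of 3 NR4A genes higher.

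Nr4a1, which is known to be induced by growth factors, cAMP and antigen receptors, had 434, 413 and 517 CPM in forskolin A, B and C, against 42.6, 41.3 and 41.0 CPM in DMSO A, B and C. The groups were far apart and the DMSO libraries nearly equal. The deposited counts behind these levels were 4166, 4444.5 and 1330 with forskolin and 292, 408 and 121 with DMSO. The log2 fold change was 3.44 ± 0.13 (SE, adjusted p = 4.48e-07), which is 10.9-fold.

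Nr4a2, best known as a factor that dopamine neurons need, had 519, 514 and 679 CPM in forskolin A, B and C, against 11.4, 12.5 and 3.05 CPM in DMSO A, B and C. The groups were far apart, and DMSO C stood below the other two DMSO libraries. That library held 9 counts, whose exact 95% Poisson interval of 1.39 to 5.79 CPM (counting error only) lies below the intervals of DMSO A (8.99 to 14.2 CPM) and DMSO B (10.4 to 14.9 CPM). The log2 fold change was 5.83 ± 0.31 (SE, adjusted p = 4.55e-06), or 57.1-fold. Without DMSO C it was 5.57.

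Nr4a3, which is known for tumour suppression in myeloid cells together with Nr4a1 and as the partner of an oncogenic fusion in a sarcoma, had 672, 663 and 662 CPM in forskolin A, B and C, against 19.7, 23.5 and 32.5 CPM in DMSO A, B and C. The forskolin libraries were nearly equal, and the DMSO libraries spread more. The log2 fold change was 4.76 ± 0.18 (SE, adjusted p = 4.48e-07), or 27.1-fold.

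Without both C libraries the log2 fold changes were 3.33 for Nr4a1, 5.42 for Nr4a2 and 4.93 for Nr4a3, all called higher. Values of all 3 members were higher in every forskolin library than in every DMSO library, which held for 10.7% of tested genes. Among the 10539 tested genes with at least 4 CPM on average, Nr4a2 had the 2nd, Nr4a3 the 6th and Nr4a1 the 24th largest log2 fold change. Over all 12233 tested genes they ranked 7th, 14th and 42nd. By p-value over all tested genes, Nr4a1 ranked 1st, Nr4a3 3rd and Nr4a2 10th.

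**Figure D2:**
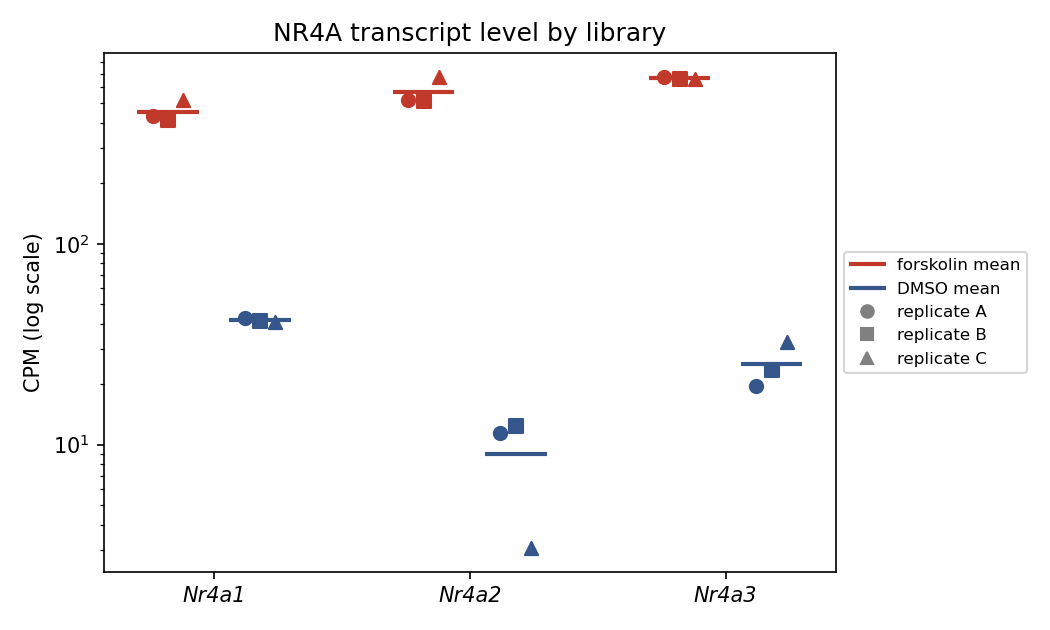
CPM (log axis) of each NR4A gene in every library, forskolin left of DMSO, with a bar at the mean of 3 libraries and a symbol for each replicate letter. The forskolin libraries lie between 413 and 679 CPM and the DMSO libraries between 3.05 and 42.6 CPM, with DMSO C lowest for Nr4a2 and highest of its group for Nr4a3.

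Levels of different genes are comparable only per length, here as CPM per kb of the transcript length in the table (2467 bases for Nr4a1, 3162 for Nr4a2 and 5559 for Nr4a3). In forskolin A, B and C, Nr4a1 had 176, 167 and 210 CPM per kb, Nr4a2 164, 163 and 215, and Nr4a3 121, 119 and 119. In DMSO A, B and C, Nr4a1 had 17.3, 16.8 and 16.6 CPM per kb, Nr4a2 3.60, 3.94 and 0.965, and Nr4a3 3.54, 4.23 and 5.85. With forskolin Nr4a1 and Nr4a2 overlapped and Nr4a3 lay below both in every library. With DMSO Nr4a1 lay above both others in every library, and Nr4a2 and Nr4a3 overlapped.

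The members were also ranked among the 12233 tested genes by CPM per kb, with rank 1 the most abundant. Nr4a1 ranked between 263 and 344 with forskolin, against 4985 to 5235 with DMSO. Nr4a2 ranked between 288 and 329 with forskolin, against 9001 to 10844 with DMSO. Nr4a3 ranked between 569 and 721 with forskolin, against 7874 to 9131 with DMSO.

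The makeup of the family differed between the groups as well as its size. The summed level of the 3 members was 485 ± 51.1 CPM per kb with forskolin and 24.3 ± 0.752 with DMSO (SD, n = 3 libraries each). Nr4a1 made up 38.0 ± 0.673% of that sum with forskolin and 69.6 ± 2.08% with DMSO. Nr4a2 made up 37.1 ± 2.10% with forskolin and 11.6 ± 6.47% with DMSO, and Nr4a3 24.9 ± 2.58% and 18.8 ± 5.47%. The shares of Nr4a1 and Nr4a2 did not overlap between the groups; those of Nr4a3 did, from 21.9 to 26.6% with forskolin and from 14.5 to 25.0% with DMSO. Shares depend on the lengths used. Without any length the order with forskolin turned round, to 26.8% for Nr4a1, 33.6% for Nr4a2 and 39.6% for Nr4a3.

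**Figure D3:**
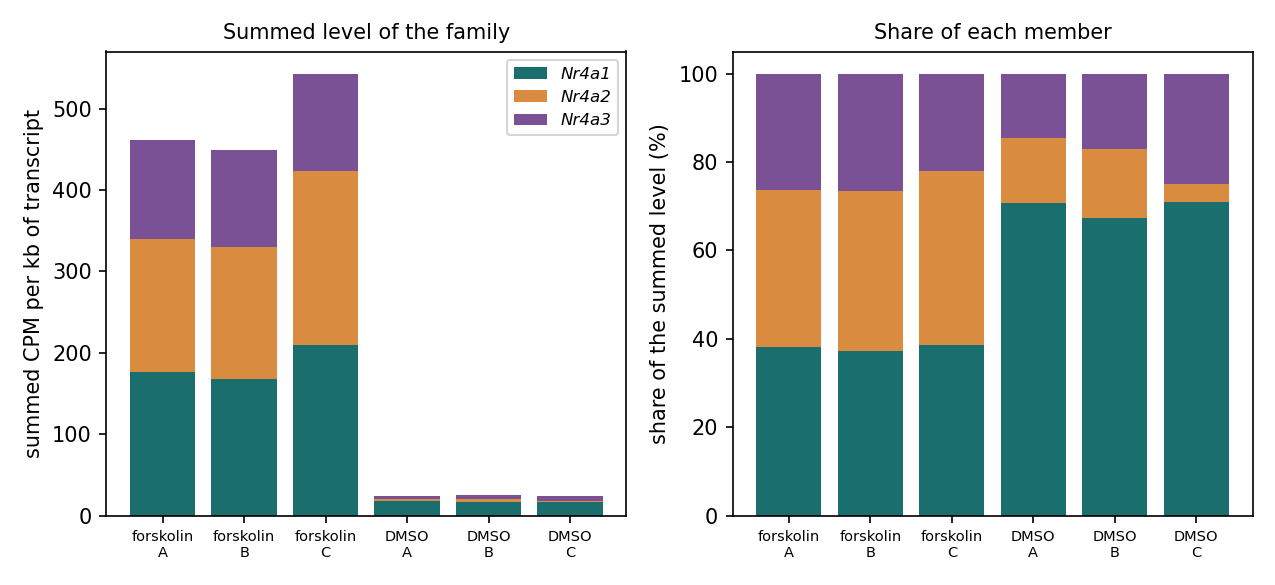
Left, summed CPM per kb of the NR4A genes in each library, split by member; right, the share of each member in that sum in percent. The sum lies between 449 and 543 CPM per kb in forskolin libraries and between 23.4 and 24.9 in DMSO libraries, and the share of Nr4a1 is near 38% in the first and near 70% in the second.

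Whether members responded by different amounts was asked with the log2 ratio of 2 members within a library, which does not depend on how libraries are scaled. The ratio of Nr4a2 to Nr4a1 was 0.26, 0.32 and 0.39 in forskolin A, B and C, against -1.90, -1.73 and -3.68 in DMSO A, B and C, so that the response of Nr4a2 was larger by 2.76 ± 0.62 (SE). The ratio of Nr4a3 to Nr4a1 was 0.63, 0.68 and 0.36 with forskolin, against -1.11, -0.81 and -0.33 with DMSO, a difference of 1.31 ± 0.25. That of Nr4a2 to Nr4a3 was -0.37, -0.37 and 0.04 with forskolin, against -0.79, -0.91 and -3.34 with DMSO, a difference of 1.45 ± 0.84. No pair overlapped between the groups, but the exact two-sided permutation test gave p = 0.1 for each of the 3 pairs (0.1 after Benjamini-Hochberg adjustment), which is the smallest value that 3 against 3 libraries allow. The difference between Nr4a2 and Nr4a3 rested largely on 1 library: it was 0.62 without DMSO C and 0.48 without both C libraries. That between Nr4a2 and Nr4a1 was 2.13 and 2.10, and that between Nr4a3 and Nr4a1 1.52 and 1.62.

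Of the 46 other nuclear receptor genes, 26 were tested, and 1 was called higher and 1 lower, beside background rates of 2.22% and 0.572%. Their median log2 fold change was -0.10, against 0.005 for all tested genes. An unadjusted edgeR p under 0.05 was found for 8 of the 26. In 5 of the 26 every forskolin value lay above every DMSO value, which held for 10.7% of all tested genes. The reverse held for Nr1d1, Nr1h4, Rxra, Nr2c2, Nr2f6 and Nr3c1, of which only Nr3c1 was called. The share of all tested genes with the reverse pattern was not taken. Ppard, a receptor for fatty acids, had 345, 352 and 302 CPM in forskolin A, B and C, against 191, 185 and 191 CPM in DMSO A, B and C (log2 fold change 0.82 ± 0.11, adjusted p = 0.00177). Nr3c1, the glucocorticoid receptor, fell to 168 ± 9.18 CPM with forskolin, against 260 ± 10.5 CPM with DMSO (-0.63 ± 0.10, adjusted p = 0.00561). Its adjusted p was 0.0556 without forskolin B and 0.0505 without DMSO B. Without forskolin C, 3 were called higher, without both C libraries 3 higher and 3 lower, and with sample quality weights 4 and 4.

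**Figure D4:**
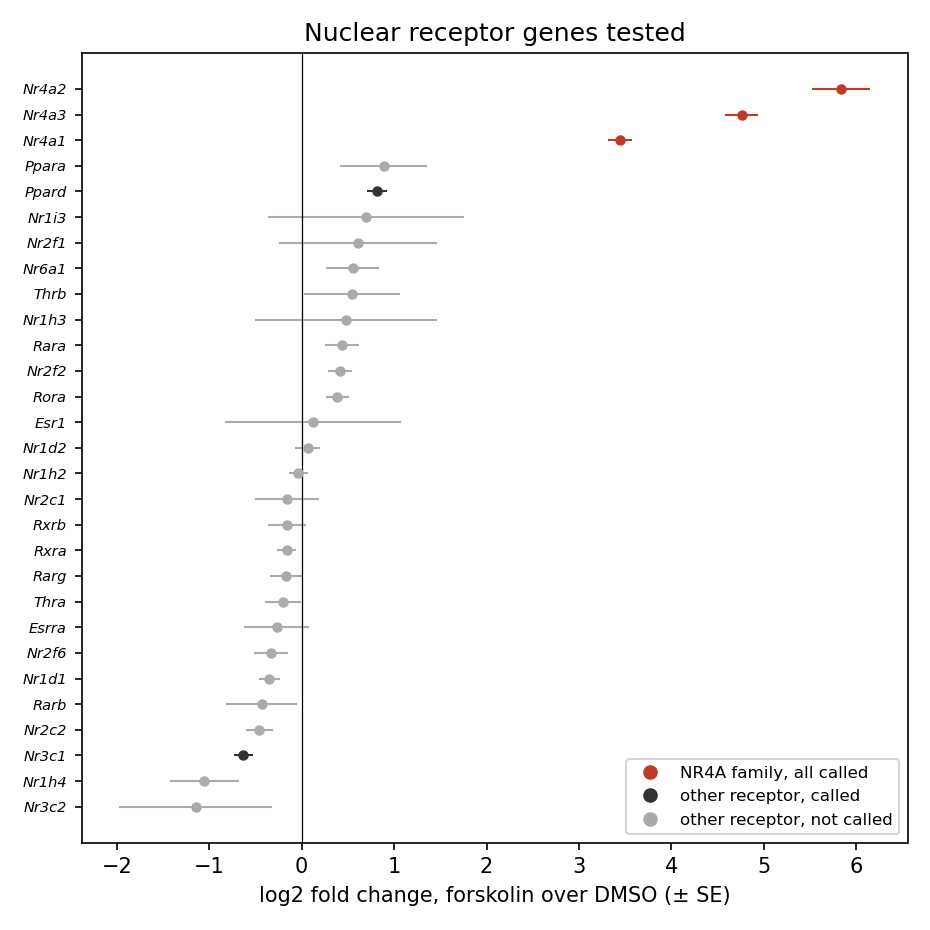
Log2 fold change of forskolin over DMSO, with its SE, for the 29 nuclear receptor genes tested, sorted by size. The 3 NR4A genes lie between 3.44 and 5.83, and of the other 26 receptors Ppard is called higher and Nr3c1 lower.

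Among genes whose products carry or restrain the cAMP signal to NR4A promoters, the transcripts of Sik1 and Crem rose. Tested were 16 genes for CREB-type factors, CRTC coactivators, salt-inducible kinases, protein kinase A subunits and histone acetyltransferases. Of these, 2 were called higher and 0 lower, beside 2.22% and 0.572% of all tested genes. The median log2 fold change of the 16 was -0.11, against 0.005 for all tested genes. An unadjusted edgeR p under 0.05 was found for 4 of them. Sik1, a kinase that holds CRTC proteins in the cytoplasm, had 556, 580 and 739 CPM in forskolin A, B and C, against 38.5, 37.9 and 28.5 CPM in DMSO A, B and C (log2 fold change 4.14 ± 0.17, adjusted p = 7.46e-07). Crem, which yields the repressor ICER, had 145, 134 and 172 CPM in forskolin A, B and C, against 13.3, 11.9 and 14.2 CPM in DMSO A, B and C (3.53 ± 0.16, adjusted p = 1.43e-06). Without both C libraries, and also with the replicate letter as a block, 4 members of this list were called higher. Of 7 tested genes for MEF2 factors, class IIa histone deacetylases and their partner Cabin1, which control NR4A genes in lymphocytes and muscle, 0 were called by edgeR, 1 by DESeq2 and 2 by either limma-voom or the edgeR likelihood ratio test, while 2 had an unadjusted edgeR p under 0.05. The 2 with such a p went opposite ways. Hdac5 had a log2 fold change of 0.51 ± 0.15 (edgeR adjusted p = 0.133) and Cabin1 of -0.56 ± 0.15 (0.0961). Mef2d, the most abundant per length, had 257 ± 7.64 CPM with forskolin and 227 ± 16.4 CPM with DMSO, and Mef2a 160 ± 8.15 and 157 ± 1.77 CPM.

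The corepressor partners through which Nr4a1 is reported to act on transforming growth factor beta targets (Sp1, Sin3a, Rcor1, Kdm1a, Hdac1 and Hdac2) gave 0 calls by edgeR among 6 tested, and 0 by DESeq2, by limma-voom or in a likelihood ratio test; 4 had an unadjusted edgeR p under 0.05. Their median was -0.42. Hdac2 had 148 ± 22.3 CPM with forskolin and 148 ± 12.9 with DMSO, and Kdm1a, the demethylase LSD1, 167 ± 20.7 and 238 ± 68.5 CPM (adjusted p = 0.263). Without both C libraries 2 of the 6 were called lower, and without forskolin C 1.

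Genes reported as targets of NR4A receptors in other cells were read against the 2.22% of all tested genes called higher and the 0.572% called lower. Of 3 tested of 10 steroid and peptide hormone genes, 1 rose and 0 fell, and Cyp19a1, Akr1c18, Crh and Insl3 had no count in any library. The riser was Star, which carries cholesterol into mitochondria and is known as an Nr4a1 target in Leydig cells and also as a CREB target. It had 320, 302 and 375 CPM in forskolin A, B and C, against 41.4, 57.3 and 56.6 CPM in DMSO A, B and C (log2 fold change 2.68 ± 0.15, adjusted p = 6.15e-06). Of 8 tested genes of glucose and muscle metabolism and 4 of dopamine neurons, 0 were called by any of edgeR, DESeq2, limma-voom and edgeR's likelihood ratio test, and 0 had an unadjusted p under 0.05. With no filter, with the replicate letter as a block and without both C libraries, 1 dopamine neuron gene was called higher. The most abundant per length were Bpgm (15.5 ± 4.30 CPM with forskolin and 14.3 ± 2.08 with DMSO), Pygm (17.3 ± 4.75 and 12.7 ± 3.42), Aldh1a1 (63.8 ± 15.5 and 51.2 ± 26.2) and Spp1, also in the cholangiocyte list (22.5 ± 14 and 9.51 ± 6.94). Th, the marker enzyme of dopamine neurons, had no count.

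Of 5 tested immune cell targets, 1 rose and 0 fell. Nfkbia, the inhibitor of NF-kB, had 155, 142 and 205 CPM in forskolin A, B and C, against 100, 106 and 103 CPM in DMSO A, B and C (log2 fold change 0.69 ± 0.14, adjusted p = 0.0295). The call was lost when forskolin A was left out (adjusted p = 0.0801), and likewise for DMSO A (0.154), DMSO B (0.125) or DMSO C (0.0781). Without both C libraries 3 of this list were called higher. Of 7 transforming growth factor beta targets that Nr4a1 is reported to repress in fibroblasts, 1 fell and 0 rose, with a median of 0.03. Ctgf, connective tissue growth factor, had 539, 537 and 664 CPM in forskolin A, B and C, against 1268, 1039 and 1320 CPM in DMSO A, B and C (-1.06 ± 0.16, adjusted p = 0.00409). The other 6, among them Col1a1 and Acta2, were not called, and without both C libraries 1 was called higher. Col1a1, Col1a2, Acta2, Col3a1 and Tagln of this list are also among the myofibroblast markers above, so the 2 lists are not separate results. The NBRE, AAAGGTCA, stood in 1.34% of the 32851 windows of 250 bases before gene starts (both strands) and in none of the 3 NR4A windows. Per gene it stood in 1.03% of tested genes with a window and in 0 of the 210 other genes called higher. No match says only that these letters are absent from these windows.

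Other immediate-early genes moved in both directions. Of 24 tested, 13 were called higher and 2 lower, beside 2.22% and 0.572% of all tested genes. The median log2 fold change of the 24 was 1.12, against 0.005 for all tested genes. Sik1 is also in this list. Klf4, a factor known for keeping cells quiescent, had 726, 700 and 920 CPM in forskolin A, B and C, against 111, 101 and 71.5 CPM in DMSO A, B and C (3.04 ± 0.19, adjusted p = 1.14e-05). Fos and Fosb, subunits of AP-1, rose by 2.28 ± 0.20 and 2.0 ± 0.18. Egr1, driven mainly by ERK signalling, fell to 74.6 ± 5.55 CPM with forskolin, against 185 ± 5.58 CPM with DMSO (-1.31 ± 0.11, adjusted p = 8.90e-05). The other gene called lower was Myc, at -1.21. Without both C libraries 4 were called lower.

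The neighbourhood of each member was read in the coordinates of the table (mm10). Nr4a1 lies at chr15:101266846-101274794 on the plus strand, Nr4a2 at chr2:57107226-57115038 on the minus strand and Nr4a3 at chr4:48045305-48086446 on the plus strand. Of 28 genes within 250 kb of a member, 9 were tested, and 1 was called higher and 0 lower, beside 2.22% and 0.572% of all tested genes. That gene was Grasp, a scaffold protein of membrane receptor traffic, at chr15:101224207-101232756, whose end lies 34.1 kb upstream of Nr4a1. It had 20.6, 17.3 and 21.0 CPM in forskolin A, B and C, against 7.88, 8.91 and 4.07 CPM in DMSO A, B and C. Its start overlaps a noncoding gene on the opposite strand, A330009N23Rik, with at most 10 counts in a library. The strand setting of the counts is not given. Every forskolin value of Grasp lay above every DMSO value, which held for 10.7% of all tested genes. Its log2 fold change was 1.44 ± 0.33 (adjusted p = 0.0480). The call was lost without any 1 library, with adjusted p from 0.0597 to 0.234, and with library sizes alone as the scaling (0.0766), while the log2 fold change stayed between 1.21 and 1.65 without any 1 library.

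None of the other 8 tested neighbours was called. Atg101, an autophagy initiation factor that is the nearest tested gene to Nr4a1 at 9.51 kb, had 50.2 ± 2.37 CPM with forskolin and 56.7 ± 4.17 CPM with DMSO (log2 fold change -0.17 ± 0.14, adjusted p = 0.755). Around Nr4a1, the activin receptor gene Acvr1b was at -0.87 ± 0.38, the keratin gene Krt80 at 0.19 ± 0.51 and Fignl2 at 0.05 ± 1.04. Acvr1b was called lower without both C libraries (adjusted p = 0.0207) and with sample quality weights (0.0378). Near Nr4a2, the mitochondrial enzyme gene Gpd2 was at 0.16 ± 0.15. Near Nr4a3, the autophagosome gene Stx17 was at -0.36 ± 0.18, the endoplasmic reticulum protein gene Erp44 at -0.07 ± 0.12 and the cilium gene Invs at 0.23 ± 0.26.

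**Figure D5:**
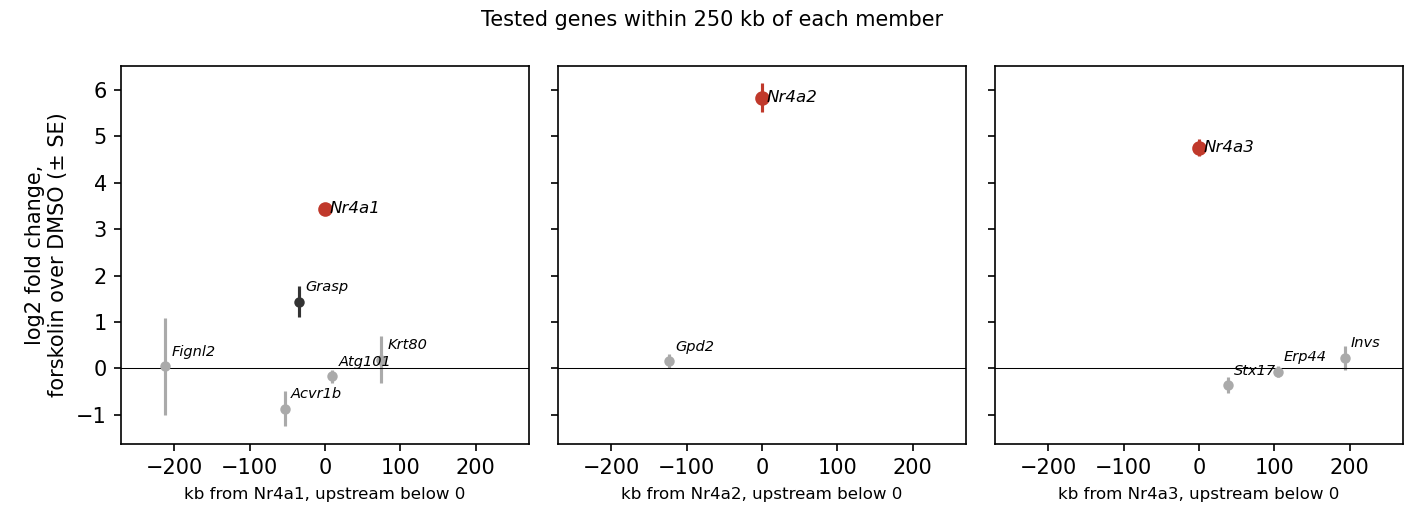
Log2 fold change of forskolin over DMSO, with its SE, of tested genes within 250 kb of each NR4A gene, against the distance from it in kb. Grasp, at 1.44, is the called neighbour, and the other 8 lie between -0.87 and 0.23.

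The genes whose profile over the 6 libraries was most like that of a member were found by the Euclidean distance between log2 CPM values (offset 0.5 CPM) centred on the DMSO mean, among 10539 genes. For Nr4a1 they were Crem (distance 0.203), Bhlhe40 (0.447), Pde4b (0.468) and Hoxa5 (0.604). Bhlhe40, a clock repressor, had 479 ± 31.1 CPM with forskolin and 51.0 ± 5.11 CPM with DMSO, Pde4b, a cAMP phosphodiesterase, 406 ± 73.2 and 40.7 ± 7.68 CPM, and the homeobox gene Hoxa5 124 ± 13.8 and 11.4 ± 2.60 CPM. For Nr4a3 they were Crhbp (0.814), Sik1 (1.35), Rgs2 (1.42) and AW011738 (1.54). Crhbp had no count with DMSO and Rgs2 none in DMSO A, so their distances depend on the offset. For Nr4a2 the nearest genes were Nap1l5 (1.45), Gja4 (1.94), Csf2rb2 (2.31) and AW011738 (2.36), and Nap1l5 had 141 ± 6.81 CPM with forskolin and 3.31 ± 3.15 CPM with DMSO. Nap1l5 and Gja4 had no count in DMSO C, and Csf2rb2 none in DMSO A and C. The search took genes with at least 4 CPM on average over all 6 libraries. Crhbp, Rgs2, Nap1l5, Gja4 and Csf2rb2 passed only through forskolin, with DMSO means of 0, 1.08, 3.31, 2.91 and 0.439 CPM. Their nearness to a raised gene is therefore not independent of this filter. The distance was 2.33 between Nr4a1 and Nr4a3, 3.12 between Nr4a2 and Nr4a3 and 4.88 between Nr4a1 and Nr4a2. For each member, its distances to the other members exceed those to its own nearest genes above, but those genes were picked as the nearest. Centring on the DMSO mean also makes the distance depend on the size of the change.

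The 3′ untranslated regions were read for the AU-rich pentamer ATTTA, a feature of many short-lived messages. The region had 3 copies over 546 bases in Nr4a1, 3 over 1329 bases in Nr4a2 and 5 over 3096 bases in Nr4a3. In the last 500 bases the counts were 3, 0 and 1. Of 14219 mouse genes with such a window, 59.2% had at least 1 copy and 13% at least 3.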

How the data were processed

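The authors deposited estimated counts of reads over the exons of each gene, named as unadjusted in the deposit. The values move in steps of 0.5 and were rounded to whole numbers (ties to even) for the tests. STAR, HOMER and the mm10 build are named in the submitters' processing notes, without versions or settings; for read length, duplicates and the counting rule, the labels give nothing. Each of the 24940 rows has 1 RefSeq transcript and its length, and 0 library columns lacked a sample. Total counts ran from 2770628 to 10607997, so that 3 counts, a floor for counting error only, equal 0.283 to 1.08 CPM.

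Fits were run across all genes in R 4.3.3 with edgeR 4.0.16 (filterByExpr, TMM, robust quasi-likelihood F test, Benjamini-Hochberg over 12233 genes). SEs are approximate and were obtained as |log2 fold change| over √F. Within-library log2 ratios used a prior of 0.5 counts. The members, the 12 pathway lists and the 7 marker lists were chosen with earlier results of these data known; the list of receptor partners and coregulators and some list members are not reported here. Named genes are the members, up to 5 called genes per list by p (the 2 most abundant per length where 0 were called), tested genes within 250 kb and the 4 genes most like each member. List members named as not called, as at 0 or as markers were chosen after their values were seen. Myc was likewise named outside the rule, as the other immediate-early gene called lower. Sequences come from RefSeq (GRCm38.p6) and GENCODE M21. Alternatives were other scalings, filters and tests (DESeq2 1.42.0, limma 3.58.1), a replicate block, libraries left out, other lengths, a prior of 2 counts and windows of 100 and 500 kb.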

Additional observations from a re-analysis of the deposited data

How the results depend on the processing

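All 3 NR4A genes stayed called higher under all 18 other fits: log2 fold changes ran from 3.33 to 3.51 for Nr4a1, 5.42 to 6.12 for Nr4a2 and 4.61 to 4.94 for Nr4a3, with adjusted p of at most 0.000227. With the replicate letter as a block they were 3.42, 5.74 and 4.79. Same-lettered libraries deviated together at 0.048, 0.133 and 0.150 (A, B and C), and differently lettered ones at -0.147 to 0.103. The labels do not mark pairs, and the letters were not taken as pairs in the main fit. Counts of calls moved: from 272 higher and 70 lower to 463 and 157 with no filter, 409 and 144 with DESeq2, 458 and 190 with the likelihood ratio test, 455 and 194 with the replicate block, 598 and 391 with sample quality weights, 131 lower with limma-voom, and 738 and 491 without both C libraries. Without 1 library they ran from 162 (forskolin A) to 372 (forskolin C) higher and from 21 (DMSO B) to 113 (forskolin C) lower; leaving out forskolin A or B or DMSO A or B gave 162 to 180 higher and 21 to 27 lower. Lists ranged from 9 to 17 higher and 2 to 4 lower (immediate-early genes), 1 to 4 and 0 to 4 (other receptors), 0 to 2 and 0 to 1 (MEF2 and deacetylases), 0 to 2 lower (corepressor partners of Nr4a1), 2 to 4 higher (cAMP inputs), 0 to 3 higher (immune targets) and 0 to 1 higher (dopamine neuron genes, 1 with no filter, with the block and without both C libraries). Shares of the family level with forskolin were 39.9% for Nr4a1 and 34.6% for Nr4a2 with GENCODE lengths, and with no length 26.8%, 33.6% and 39.6% for Nr4a1, Nr4a2 and Nr4a3; with DMSO and no length they were 54.9% for Nr4a1 and 33.2% for Nr4a3. Of 5 tested genes within 100 kb and 13 within 500 kb, 1 was called, Grasp in both. Uncalled neighbours near 0 changed sign: Erp44 was at 0.021 with quality weights, 0.050 without both C libraries and -0.13 to 0.033 without 1 library; Fignl2 at -0.0087 with library sizes alone, -0.50 with limma-voom, -0.18 with the replicate block, -0.64 with quality weights, -0.25 without both C libraries and -0.81 to 0.62 without 1 library; Krt80 at -0.00056 with quality weights and -0.017 without both C libraries. The cause was not tested. The C libraries limit the depth: Nr4a2 rests on 9 counts in DMSO C.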
